A study of Mus musculus with 5 samples.

Results

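Hypoxia and glycolysis genes were examined for H3K27ac, the histone acetylation found at active promoters and enhancers, in regulatory T (Treg) cells of the mouse large intestine. The 10 genes were the oxygen-sensing transcription factor subunit Hif1a, the glucose transporter genes Slc2a1 and Slc2a3, and the enzyme genes Hk1, Hk2, Pfkp, Aldoa, Pgk1, Pkm and Ldha. They were chosen by name. All H3K27ac peaks that overlapped the GENCODE M21 span of a gene on mm10, extended by 5 kb on each side, were taken as the window of that gene. All 10 genes had peaks, among 15823 protein-coding genes with a peak in their window, and their windows held 122 of the 124158 peaks of the dataset. The rule uses no measured value.

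The mark was profiled by CUT&Tag, in which an antibody brings a transposase to the histone mark and adapters are inserted into the DNA beside it. Ctrl mice were Foxp3Cre-YFP Setd2 f/+, with 1 floxed allele of Setd2, and KO mice were Foxp3Cre-YFP Setd2 f/f, with both alleles floxed, so Treg cells of both groups carried the Cre-YFP driven from Foxp3 and Ctrl cells could themselves lose 1 allele. Setd2 is the methyltransferase that places H3K36me3 along transcribed genes. All mice were C57BL/6 and 2 weeks of age, sexes were pooled, and each of the 2 libraries per group came from 60000 CD3+CD4+YFP+ cells sorted from a pool of 3 to 5 littermate mice. The comparison of KO with Ctrl asks whether loss of Setd2 in Treg cells changes the acetylation of these genes.

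Glycolysis converts glucose to pyruvate in the cytosol. GLUT transporters take glucose up, hexokinases phosphorylate it, phosphofructokinase commits it to the pathway, aldolase splits the sugar, phosphoglycerate kinase and pyruvate kinase yield ATP, and lactate dehydrogenase turns pyruvate into lactate. HIF1A protein is hydroxylated and degraded when oxygen is plentiful. In low oxygen it pairs with ARNT, binds the short hypoxia response core in DNA and switches on many of the genes named here. Activated effector T cells rely heavily on glycolysis, whereas Treg cells are known for leaning more on mitochondrial respiration, and the large intestine is a tissue with little oxygen near its lumen.

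Promoter sequences of 5 of these promoters are shown because the acetylation data bear on them. The 2 Hk1 promoters contrast a start inside the tallest peak of the 10 genes with a start that lay outside every peak, and the Hif1a, Pgk1 and Ldha promoters lay wholly inside peaks and hold the hypoxia response core in different arrangements. Sequences are from RefSeq on GRCm38.p6, the assembly of mm10, run 5′ to 3′ on the strand of the gene from 250 bases before the start to 50 bases after it, and have matches to ACGTG or GCGTG on either strand in capitals. Capitals reading CACGTG are a core that is also an E-box. Overlapping matches were counted as 1, so the capitals CACGCGTG in Hk1 promoter 1 are 1 match.
Hif1a promoter (chr12:73907617-73907916, plus strand): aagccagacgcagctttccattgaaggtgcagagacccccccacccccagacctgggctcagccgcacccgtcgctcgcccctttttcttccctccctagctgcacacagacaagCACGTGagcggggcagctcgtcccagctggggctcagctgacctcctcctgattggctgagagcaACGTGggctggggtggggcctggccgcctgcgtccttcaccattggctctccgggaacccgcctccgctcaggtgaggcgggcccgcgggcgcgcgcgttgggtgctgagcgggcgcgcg
Hk1 promoter 1 (chr10:62340372-62340671, minus strand): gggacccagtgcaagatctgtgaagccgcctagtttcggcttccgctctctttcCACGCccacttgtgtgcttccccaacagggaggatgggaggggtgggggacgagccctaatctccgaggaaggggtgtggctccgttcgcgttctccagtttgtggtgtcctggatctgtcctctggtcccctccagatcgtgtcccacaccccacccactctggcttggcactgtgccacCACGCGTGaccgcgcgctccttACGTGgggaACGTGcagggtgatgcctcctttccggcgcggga
Hk1 promoter 2 (chr10:62379859-62380158, minus strand): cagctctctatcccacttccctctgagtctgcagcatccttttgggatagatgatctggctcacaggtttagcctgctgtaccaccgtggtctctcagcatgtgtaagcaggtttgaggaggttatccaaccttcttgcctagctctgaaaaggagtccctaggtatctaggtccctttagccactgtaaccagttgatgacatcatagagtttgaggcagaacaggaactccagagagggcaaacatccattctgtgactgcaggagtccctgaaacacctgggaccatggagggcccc
Pgk1 promoter (chrX:106186850-106187149, plus strand): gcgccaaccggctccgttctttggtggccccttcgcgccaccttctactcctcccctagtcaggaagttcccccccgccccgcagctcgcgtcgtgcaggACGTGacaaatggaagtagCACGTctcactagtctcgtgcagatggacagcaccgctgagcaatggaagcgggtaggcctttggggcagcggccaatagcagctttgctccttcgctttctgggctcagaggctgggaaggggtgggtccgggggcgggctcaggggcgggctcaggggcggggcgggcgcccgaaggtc
Ldha promoter 1 (chr7:46845554-46845853, plus strand): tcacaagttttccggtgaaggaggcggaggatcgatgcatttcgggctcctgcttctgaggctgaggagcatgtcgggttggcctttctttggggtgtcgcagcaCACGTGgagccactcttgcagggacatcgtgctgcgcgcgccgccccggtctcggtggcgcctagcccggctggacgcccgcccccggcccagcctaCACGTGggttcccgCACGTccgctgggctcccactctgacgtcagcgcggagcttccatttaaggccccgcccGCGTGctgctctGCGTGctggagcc

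Promoter entries were found for 9 of the 10 genes, 14 promoters in all. Each of these 9 genes had at least 1 promoter with the core, and 11 of the 14 promoters held it, against 50.4% of 20150 promoters of the same length. Aldoa promoters 1 and 2 overlap and share the same match, at −202 and −126 from their starts, which was counted in both. A share by gene over all genes was not computed. The core occurred at least 2 times in 9 of the 14, against 22.1% of all promoters. Ldha promoter 1 held 5 matches, 2 of them in E-boxes, and Hk1 promoter 1 held 4. Hk1 promoter 2 held 0 matches and 1 CpG, whereas Hk1 promoter 1 had 20 CpG and the Hif1a promoter 25. These 14 promoters were rich in G and C, with a median of 65.2% against 57% in all promoters, the core itself contains CpG, and the shares were not adjusted for base composition. A match is a description of the letters in the window and not a bound site.

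Sequencing depth lay between 2395002 and 4712473 counts per library, with 1 shallower and 1 deeper library in each group. Values in CPM, counts scaled to a common library total, are relative to the tested peaks of each library after TMM normalization. Treg and T cell markers carried strong signal: the summed CPM of Foxp3, Il2ra, Ctla4, Ikzf2, Cd3e and Cd4 was 2464 and 2705 in Ctrl and 2880 and 3398 in KO. Both KO sums were the higher, and their part in the results at the 10 genes was not tested. Among 12 markers of B cells, myeloid cells, epithelium, stroma and CD8 T cells, Ms4a1, Lyz2 and Col1a2 had no peak, Epcam had 3.83 to 8.14 CPM, Vil1 19.5 to 23.5, Cdh1 25.9 to 47.7 and Csf1r 18.3 to 50.6, and the sum was 312.8 and 394.4 in Ctrl and 313 and 429.9 in KO. Most of this sum came from the window of Cd79a, whose own start had 1.44 CPM. Vil1, Cdh1 and Csf1r had 0 CPM in peaks within 1 kb of their own starts, so their signal lay elsewhere in their windows. Setd2, the floxed gene, had 67.4 and 97.6 CPM in Ctrl and 49.2 and 75.7 CPM in KO, which overlapped, and the acetylation of a gene does not report the loss of an exon. With 2 libraries against 2, an exact two-sided permutation test of a single value cannot go below p = 0.333. In pooled cells, less of the mark per cell and fewer cells with the mark cannot be told apart.

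No window of the 10 genes was called as different between KO and Ctrl. Signal was present at every one of them in all 4 libraries, from 36.6 CPM at Pgk1 in Ctrl 2 to 342 CPM at Slc2a1 in KO 2. In edgeR's quasi-likelihood test over 14259 windows, 0 of the 10 genes were called at an adjusted p under 0.05, and 0% of all windows were. All 10 had an adjusted p of 0.999. At an unadjusted p under 0.05 there were 0 of the 10 genes, against 2.73% of all windows, and DESeq2 called 0 windows as well. Estimates were positive at 8 of the 10 genes and negative at Slc2a3 and Hk1, or positive at 7 where Pfkp turned with total counts or a loess offset as scaling, and the median log2 fold change was 0.19. This median was 0.10 without KO 1, 0.08 without KO 2 and 0.07 at 50 counts or more. The median of all windows was then −0.06, −0.056 and −0.12, in that order. Over all windows of the main comparison the median was −0.0059 and 49.4% were positive. At 3 genes, Hk2, Pgk1 and Pkm, the 2 KO values exceeded the 2 Ctrl values, against 12.9% of all windows. At 0 genes were both KO values below both Ctrl values, against 16.5% of all windows. Summed over the 10 genes the signal was 1579 and 1556 CPM in Ctrl and 1675 and 1701 CPM in KO. The lowest value of a gene fell in a Ctrl library at 9 genes, 5 times in Ctrl 1 and 4 times in Ctrl 2, and in KO 2 at Slc2a3. Neither these sums nor these counts were set against all windows. The 10 genes share the same 4 libraries and scaling, so they are not replicates of the comparison.

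**Figure D1:**
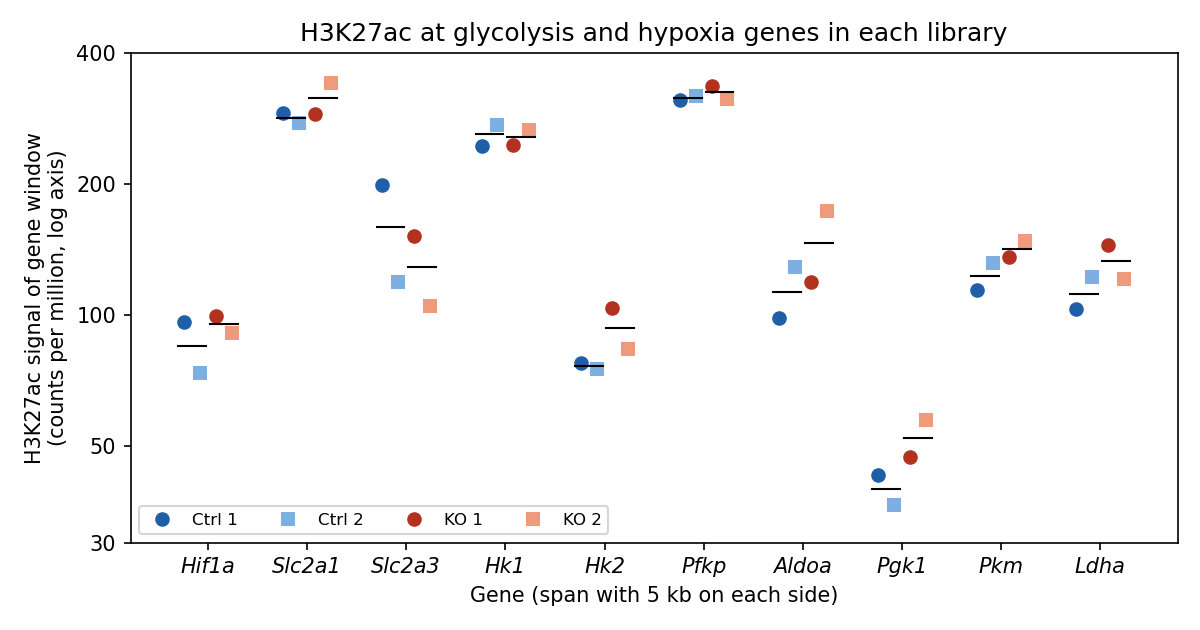
H3K27ac signal of the window of each gene in CPM on a log axis, with circles for replicate 1, squares for replicate 2, blue for Ctrl, red for KO and a black bar for the mean of each group. Values run from 36.6 to 342 CPM, and the KO points clear both Ctrl points only at Hk2, Pgk1 and Pkm.

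Hif1a, the oxygen-regulated subunit of the hypoxia-inducible factor, lies on chr12:73901375-73947530. Its window had 96.4 and 73.5 CPM in Ctrl and 99.5 and 91.0 CPM in KO. Ctrl 2 was low and the other 3 libraries lay close together, so the groups overlapped. On the log2 scale KO exceeded Ctrl by 0.17 (SE 0.25, unadjusted p = 0.518), and the value was −0.015 without Ctrl 2 and 0.36 without Ctrl 1. Acetylation centred on the start at 73907904, which sat in a peak of 3308 bp (73906792 to 73910099) with 53.8 and 42.6 CPM in Ctrl and 47.3 and 46.5 CPM in KO. That peak had a log2 fold change of −0.04 (SE 0.31) and its groups overlapped. The annotated start further upstream, at 73901375, had no peak within 1 kb, the nearest being 2.15 kb away. That nearest peak, in an intron of the longer transcript, had 13.6 and 8.93 CPM in Ctrl and 16.0 and 15.3 CPM in KO, with both KO libraries on top and an unadjusted p of 0.288.

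Slc2a1, which encodes the basal glucose transporter GLUT1, lies on chr4:119108711-119137983. It had 291 and 276 CPM in Ctrl and 290 and 342 CPM in KO. KO 2 alone was high. The difference was 0.16 on the log2 scale (SE 0.21, unadjusted p = 0.469) and came to 0.002 without KO 2. Most of the signal was not at the promoter. An intronic peak of 6707 bp (119122986 to 119129692), beginning 14275 bp into the gene, had 152 and 150 CPM in Ctrl and 151 and 210 CPM in KO, and took 56.2% of the counts of the window summed over the 4 libraries. The promoter peak of 2441 bp had 30.8 and 36.0 CPM in Ctrl and 45.8 and 37.1 CPM in KO. Per kb of peak the intronic peak was also the higher, at 24.7 CPM per kb against 15.3 CPM per kb at the promoter. Wide peaks of this kind were rare, as 1.02% of all peaks were at least 5 kb wide, and 3 were found among the 122 peaks of these genes. In the last part of the gene 2 small peaks were lower in both KO libraries, as described below with the single peaks.

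Slc2a3, which encodes the high-affinity transporter GLUT3, lies on chr6:122727809-122801640 and was 1 of the 2 genes with a negative estimate. Its window had 199 and 119 CPM in Ctrl and 152 and 105 CPM in KO. Replicate 1 was the higher library in both groups, and the groups overlapped. The estimate for KO over Ctrl was −0.31 on the log2 scale (SE 0.31, unadjusted p = 0.343), but it was 0.10 without Ctrl 1, the highest library, −0.64 without Ctrl 2, −0.61 without KO 1 and −0.09 without KO 2. Of its 10 tested peaks 9 had a negative estimate. The gene had acetylated starts in 2 places. The start at 122742745 lay in a peak with 47.1 and 24.1 CPM in Ctrl and 26.8 and 29.5 CPM in KO, and the start of a longer transcript at 122801640 lay in a peak of 2366 bp (122800399 to 122802764) with 38.9 and 40.5 CPM in Ctrl and 45.8 and 25.2 CPM in KO. The upstream peak was thus as tall as the downstream one, at 15.9 CPM per kb against 14.3 CPM per kb.

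**Figure D2:**
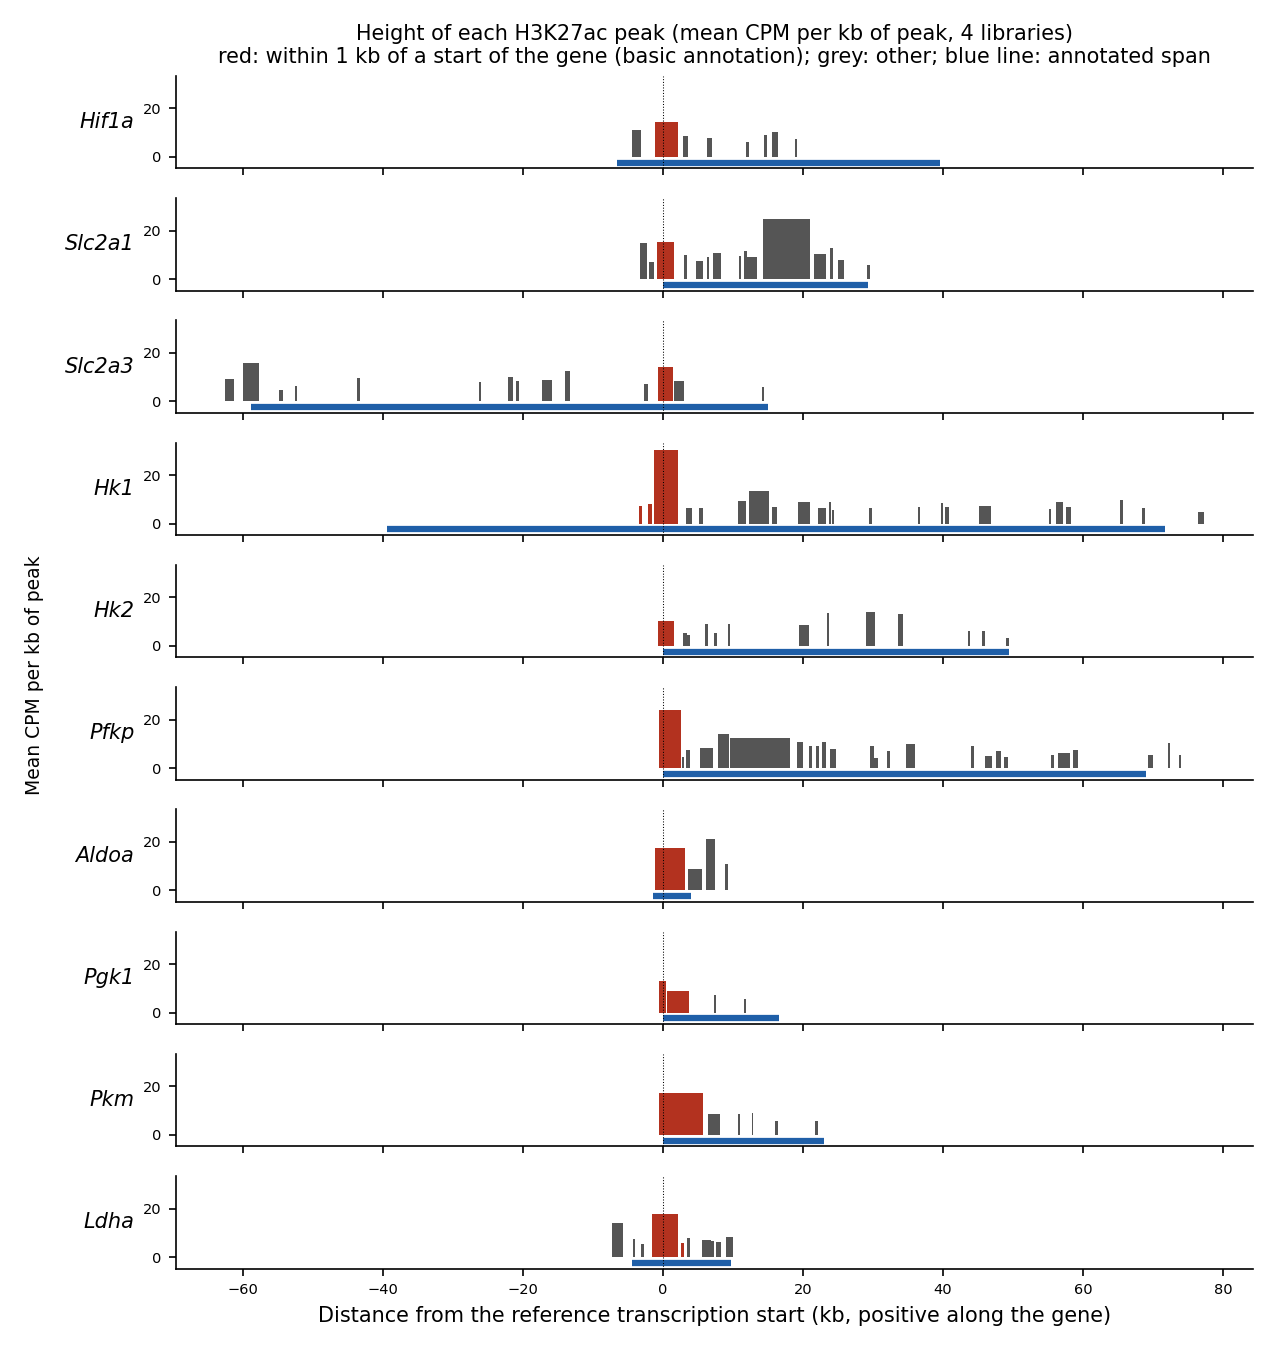
Peaks of the 10 genes drawn to scale by distance in kb from the reference transcription start, positive along the gene, with the mean signal of the 4 libraries in CPM per kb of peak as height. Red peaks lie within 1 kb of a start of the gene in the basic annotation and grey peaks do not. The intronic peak of Slc2a1 stands above its own promoter peak. No peak lies over the Hk1 span beyond 3.45 kb upstream of its reference start.

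Hk1, the hexokinase found in most tissues, lies on chr10:62268855-62379908. Its window had 245 and 274 CPM in Ctrl and 246 and 266 CPM in KO, nearly the same in all 4 libraries. Its log2 fold change was −0.02 (SE 0.21, unadjusted p = 0.92), and its sign turned without Ctrl 2, to 0.07, and without KO 1, to 0.016. The start at 62340542 lay in a peak of 3470 bp (62338331 to 62341800) that was the tallest of all 122, at 30.4 CPM per kb. It had 101 and 84.5 CPM in Ctrl and 114 and 122 CPM in KO, so both KO libraries were above both Ctrl libraries, with a log2 fold change of 0.35 (SE 0.28, unadjusted p = 0.206). Hk1 promoter 1, printed above, lies inside this peak. The starts next upstream, at 62342699 and 62342722, lay in or 16 bp from a small peak (62342079 to 62342706). That peak had 4.98 and 2.98 CPM in Ctrl and 4.10 and 8.63 CPM in KO. The 5 starts annotated beyond these, among them that of Hk1 promoter 2, had no peak within 1 kb. Their nearest peaks were 14.4 to 33.4 kb away.

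Hk2, the inducible hexokinase, lies on chr6:82725025-82774454. It had 77.4 and 75.3 CPM in Ctrl and 104 and 83.6 CPM in KO, with both KO libraries on top and KO 1 well above the rest. This gave a log2 fold change of 0.29 (SE 0.24, unadjusted p = 0.263), and 0.12 without KO 1. Its promoter peak (82772846 to 82775099) was one of the lower ones, at 10.2 CPM per kb, and held 26.6% of the counts of the window summed over libraries. Of the 9 tested peaks 8 had a positive estimate. Peaks beginning 28989 and 33620 bp into the gene reached 13.8 and 13.3 CPM per kb, higher than the promoter.

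Pfkp, the platelet-type phosphofructokinase, lies on chr13:6579768-6648777 and had 312 and 319 CPM in Ctrl and 336 and 314 CPM in KO, all 4 libraries lying close together. Its log2 fold change was 0.04 (SE 0.20, unadjusted p = 0.839), −0.024 without KO 1, and −0.015 and −0.084 with total counts and a loess offset as scaling. With 25 peaks it had the most acetylated segments. The widest, of 8491 bp (6630662 to 6639152), began 9625 bp into the gene and had 107 and 86.0 CPM in Ctrl and 114 and 112 CPM in KO. The promoter peak (6646163 to 6649408) was taller per kb, at 23.8 CPM per kb against 12.3 CPM per kb. Among the 19 tested peaks 7 had a positive and 12 a negative estimate, so segments of 1 gene had both signs.

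Aldoa, the aldolase of muscle and most other cells, lies on chr7:126795234-126800751. Its window had 98.2 and 129 CPM in Ctrl and 119 and 173 CPM in KO. KO 2 was the highest library and KO 1 lay between the Ctrl libraries. The log2 fold change was 0.36 (SE 0.27, unadjusted p = 0.215) and came to 0.17 without Ctrl 1, 0.58 without Ctrl 2, 0.59 without KO 1 and 0.03 without KO 2. The start lay in a peak of 4312 bp (126796087 to 126800398) that also holds the start of the neighbouring gene Fam57b, and a second peak of the window belongs to the start of Ppp4c, so the signal is shared with these genes.

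Pgk1, phosphoglycerate kinase on the X chromosome, lies on chrX:106187100-106203699 and was 1 of the 3 genes without overlap between the groups. It had 43.0 and 36.6 CPM in Ctrl and 47.3 and 57.3 CPM in KO, with both KO libraries on top. This gave a log2 fold change of 0.40 (SE 0.28, unadjusted p = 0.179), and 0.22 without KO 2. At the start, a peak of 1074 bp had 15.8 and 11.0 CPM in Ctrl and 17.9 and 11.3 CPM in KO, which overlapped. The next peak, of 3129 bp (106187724 to 106190852), had 17.6 and 23.8 CPM in Ctrl and 28.3 and 44.1 CPM in KO, with no overlap. Because sexes were pooled and their ratio was not given, Pgk1 was also set against its chromosome. Its share of the counts on chromosome X was 0.309% ± 0.00199 (SD, n = 2) in Ctrl and 0.4% ± 0.0725 (SD, n = 2) in KO, and both KO libraries were above both Ctrl libraries.

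Pkm, pyruvate kinase, lies on chr9:59656368-59679375 and had 114 and 132 CPM in Ctrl and 136 and 148 CPM in KO, with both KO libraries on top by a small margin. Across the window KO over Ctrl was 0.21 on the log2 scale (SE 0.23, unadjusted p = 0.39), 0.10 without Ctrl 1 and 0.11 without KO 2. Its acetylation was concentrated in 1 peak of 6223 bp over the starts (59655855 to 59662077), which held 80.7% of the counts summed over libraries. This peak had 92.7 and 94.0 CPM in Ctrl and 121 and 121 CPM in KO. Here the replicates of each group lay very close together and the groups were apart, with a log2 fold change of 0.37 (SE 0.28, unadjusted p = 0.174). The peak test used the spread given by the trend over all peaks and not that of the single peak.

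Ldha, lactate dehydrogenase A, lies on chr7:46841475-46855627 and had 103 and 122 CPM in Ctrl and 145 and 121 CPM in KO. KO 1 was high and KO 2 was level with Ctrl 2. The log2 fold change was 0.23 (SE 0.24, unadjusted p = 0.35), 0.12 without Ctrl 1, 0.36 without Ctrl 2 and 0.09 without KO 1. Its main peak (46844216 to 46847934) covered the printed promoter and other starts and had a log2 fold change of 0.06 (SE 0.29). A peak upstream of the gene (46838509 to 46840099) had both KO libraries above both Ctrl libraries, at 0.44 (SE 0.38).

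Levels of different genes were compared per kb of peak, as the mean of the 4 libraries. Slc2a1 and Aldoa led with 15.8 CPM per kb each, followed by Pkm with 14.1, Ldha with 12.2, Hk1 with 11.9, Hif1a with 11.3, Pfkp with 11.2, Slc2a3 with 11.0, Pgk1 with 9.66 and Hk2 with 9.29 CPM per kb. The ranges over libraries of all neighbours in this order overlapped. Against all windows, Slc2a1 stood at percentile 89.2 and Aldoa at 89.1 by CPM per kb, Pgk1 at 44.0 and Hk2 at 39.6. The inducible hexokinase Hk2 was thus acetylated less densely than Hk1, whose lowest library, at 11.3 CPM per kb, was level with the highest library of Hk2, also at 11.3. Peaks of the 10 genes had a median width of 615 bp, against 477 bp in the whole dataset.

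Peaks at the starts and peaks elsewhere in the genes were then compared separately, a split made after the values were seen. Starts were those of the basic GENCODE set. TSS peaks, within 1 kb of such a start of the gene itself, were tested for 10945 genes and peaks over 1 kb from every such protein-coding start for 12112 genes. Peaks over starts outside the basic set counted as away from the TSS, among them the upstream peak of Slc2a3, the widest peak of Pfkp and the Hk1 peak beginning 12277 bp into the gene. In TSS peaks 0 of the 10 genes were called by edgeR, against 0% of all genes, and 0 had an unadjusted p under 0.05, against 1.36%. The smallest unadjusted p was 0.0607, at Pgk1, with a log2 fold change of 0.57 (SE 0.28). At 6 genes, Slc2a1, Hk1, Pfkp, Aldoa, Pgk1 and Pkm, the 2 KO values exceeded the 2 Ctrl values, against 18.3% of all genes. The median log2 fold change was 0.25, and that of TSS peaks over all genes was 0.07, with 59.2% positive. Aldoa followed Pgk1, at 0.47 (SE 0.27), with 59.7 and 68.4 CPM in Ctrl and 76.4 and 101 CPM in KO.

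Away from the starts 9 genes could be tested, and the median over all genes was −0.13. Of these 9 genes 0 were called by edgeR, against 0% of all, and 0 had an unadjusted p under 0.05, against 6.92%. The median of the 9 was 0.14. Both KO values exceeded both Ctrl values at 3 of them, Hif1a, Hk2 and Ldha, and lay below at 1, Hk1. The shares of these 2 patterns over all genes are not given here. Hk1 and Pkm had opposite signs in their 2 kinds of peak. At Hk1 the peaks away from the starts had 136 and 183 CPM in Ctrl and 125 and 132 CPM in KO, both KO libraries being below, with a log2 fold change of −0.31 (SE 0.27). At Pkm they had 20.8 and 37.8 CPM in Ctrl and 14.9 and 26.6 CPM in KO, which overlapped, at −0.50 (SE 0.45). Hif1a went the other way, with 0.40 (SE 0.37) away from the starts and −0.03 (SE 0.28) in its TSS peak.

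The share of the counts of a window that fell in TSS peaks compares both kinds within each library and does not depend on its depth or scaling. This TSS share was 38.8% ± 7.97 in Ctrl and 49.7% ± 0.684 in KO at Hk1, 86.5% ± 12.2 and 97.1% ± 0.697 at Pgk1, and 76.5% ± 7.31 and 85.5% ± 4.95 at Pkm (SD, n = 2). At these 3 genes both KO libraries had the larger share, against 30.8% of 8835 windows with at least 50 counts in each library, so this was about as frequent here as elsewhere. At 2 genes both KO libraries had the smaller share, against 8.41%. These were Hif1a, with 56.9% ± 1.43 for Ctrl and 49.3% ± 2.47 for KO, and Ldha, with 58.4% ± 0.584 for Ctrl and 54.0% ± 0.535 for KO (SD, n = 2). The exact permutation p of each such share is 0.333, the smallest possible with these libraries.

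**Figure D3:**
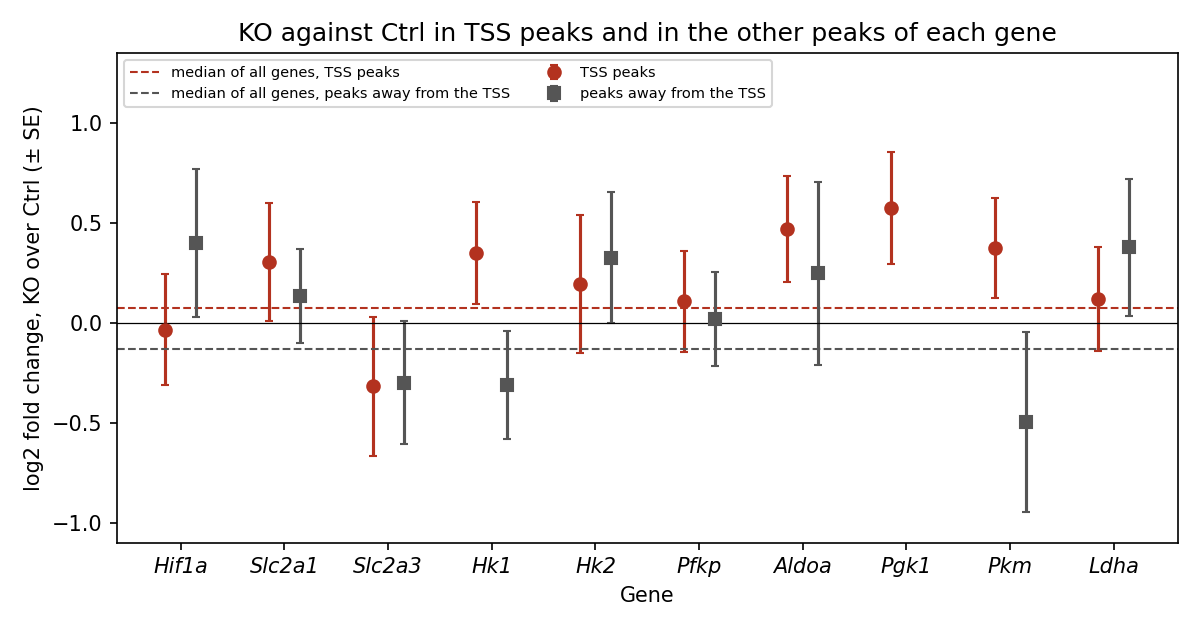
The log2 fold change of KO over Ctrl, with its SE, for TSS peaks (red circles) and for peaks away from the TSS (grey squares) of each gene, with dashed lines at the medians over all genes, 0.07 and −0.13. Red exceeds grey most at Hk1 and Pkm and falls below it at Hif1a, Hk2, Ldha and, by little, Slc2a3; Pgk1 had too few counts away from its starts for a grey point.

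Single peaks of the 10 genes were mixed in direction. Of the 122 peaks 90 had at least 10 counts in at least 2 libraries and were tested, with 46 positive and 44 negative estimates. Both KO values lay above both Ctrl values at 23 of the 90 and below them at 16, and the groups overlapped at 51. The shares of these patterns over all peaks are not given here. At an adjusted p under 0.05, edgeR called 0 of them, against 0.00134% of all tested peaks. At an unadjusted p under 0.05 there were 7, against 4.24% of all tested peaks, with 2 higher and 5 lower in KO and an adjusted p of 0.998 each.

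The 2 higher ones were the second peak of Pgk1, at 0.80 (SE 0.35, unadjusted p = 0.0237), and an intronic peak of Pfkp (6639380 to 6640863) that lies between its promoter and its widest peak. The Pfkp peak was counted 24 and 50 times in Ctrl, 74 and 125 times in KO, or 10.9 and 14.9 CPM against 27.6 and 29.9 CPM, at 1.15 (SE 0.40, unadjusted p = 0.00395). Its groups did not overlap, which a choice of peaks by low p favours, and its adjusted p in the edgeR test was 0.998.

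The 5 lower ones were small peaks far from the promoter, 3 in Hk1 and 2 in Slc2a1. At Hk1 the peak with the smallest p of all 90 (62299694 to 62300237) had counts of 12 and 26 in Ctrl against 4 and 1 in KO (unadjusted p = 0.00284). A peak deeper in the gene (62283375 to 62284407) had counts of 32 and 43 in Ctrl against 12 and 22 in KO, at −1.46 (SE 0.55, unadjusted p = 0.00786). Its neighbour (62282184 to 62282892) had counts of 10 and 37 in Ctrl against 5 and 8 in KO, at −2.04 (SE 0.78, unadjusted p = 0.00868). At Slc2a1 the pair lay close together, with counts of 24 and 20 in Ctrl against 5 and 15 in KO in the first (119132618 to 119133051), and of 28 and 27 in Ctrl against 10 and 13 in KO in the second (119133652 to 119134504). Their log2 fold changes were −1.55 (SE 0.71, unadjusted p = 0.0287) and −1.58 (SE 0.64, unadjusted p = 0.013). With 1 to 43 counts per library these peaks carried little of the signal of their genes.

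**Figure D4:**
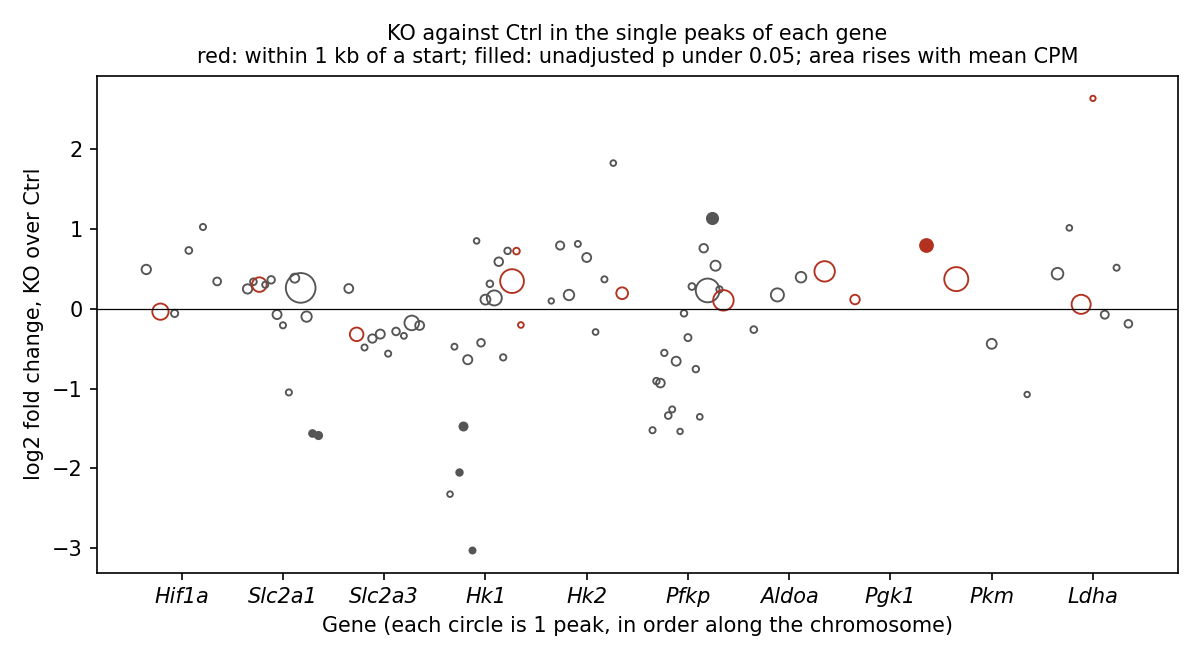
The log2 fold change of KO over Ctrl for each of the 90 tested peaks, grouped by gene and ordered along the chromosome, with red for peaks within 1 kb of a start, area rising with mean CPM and filled circles for the 7 peaks with an unadjusted p under 0.05. The largest circles lie a little above 0, from 0.06 at the main peak of Ldha to 0.47 at that of Aldoa. The next largest, of Hif1a, lies at −0.04. Filled circles below 0 are small peaks of Slc2a1 and Hk1.

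Other genes of the pathway had no calls either, as held for all windows. Of 64 further genes in 6 lists 62 had a peak and 59 were tested. Of these 0 were called by edgeR, against 0% of all windows. At an unadjusted p under 0.05 there were 2, against 2.73% of all windows. Estimates were positive at 35 and negative at 24, with a median log2 fold change of 0.05. Over all windows 49.4% were positive. Both KO values exceeded both Ctrl values at 11 of the 59 genes, against 12.9% of all windows. They lay below both Ctrl values at 9, against 16.5%. These lists were drawn up by function, with earlier results of these data known.

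Other glycolytic enzymes were the list closest to the 10 genes. Of 17 tested 11 were positive, with a median of 0.25, and 0 had an unadjusted p under 0.05. The 3 with the most summed signal, a sum that grows with the length acetylated, were Pfkfb3, which makes the activator of phosphofructokinase, with 218 and 250 CPM in Ctrl and 192 and 251 CPM in KO, Gpi1, glucose-6-phosphate isomerase, with 211 and 230 CPM in Ctrl and 167 and 173 CPM in KO, and Eno3, an enolase, with 136 and 177 CPM in Ctrl and 169 and 250 CPM in KO. Gpi1 was below Ctrl in both KO libraries, at −0.38 (SE 0.21). This held for 2 of the 17 genes, Gpi1 included, against 16.5% of all windows. At 4 of the 17 both KO libraries were above both Ctrl libraries, against 12.9%. Pfkfb3, Gpi1 and Eno3 averaged 228, 195 and 183 CPM, of which their own TSS peaks held 65.1, 26.6 and 79.3 CPM. Among the other sugar and lactate transporters 5 were tested, with 3 positive and a median of 0.05. The lactate exporter Slc16a3 had 52.5 and 99.7 CPM in Ctrl and 54.0 and 92.5 CPM in KO, and Slc16a1 and Bsg averaged 54.4 and 44.5 CPM.

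Regulators of HIF were positive at 6 of 9, with a median of 0.10. Hif3a, Egln2 and Epas1 averaged 210, 146 and 128 CPM, of which their own TSS peaks held 13.6, 90.3 and 28.8 CPM. Egln1, the prolyl hydroxylase that marks HIF1A for degradation, had 49.8 and 77.7 CPM in Ctrl and 39.5 and 36.4 CPM in KO, both KO libraries being below, at −0.76 (SE 0.30, unadjusted p = 0.0321, adjusted p = 0.999). Of its average of 50.8 CPM, its own TSS peaks held 4.24 CPM, so most of this signal lay away from the start. HIF targets outside glycolysis were split evenly, with 7 positive and 7 negative among 14 tested and a median of −0.01. Adm and Ak4 had no peak. The stress gene Ddit4 had 131 and 141 CPM in Ctrl and 156 and 179 CPM in KO, and Bhlhe40 and Mxi1 averaged 112 and 105 CPM.

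Regulators of glucose use had a median of 0.004 over 7 genes. Those with the most summed signal were Rptor and Mtor, of the mTOR complex, and its activator Rheb. Mtor had 210 and 263 CPM in Ctrl and 196 and 170 CPM in KO, at −0.38 (SE 0.23). Rptor, Mtor and Rheb averaged 356, 210 and 133 CPM, of which their own TSS peaks held 7.87, 31.8 and 67.6 CPM. Of the pentose phosphate enzymes, which branch from glycolysis, 4 of 7 were positive with a median of 0.007. Rpe, ribulose-phosphate epimerase, had 57.0 and 41.4 CPM in Ctrl and 28.7 and 21.6 CPM in KO, at −0.97 (SE 0.32, unadjusted p = 0.0139, adjusted p = 0.999), and Pgd was also below Ctrl in both KO libraries, at −0.52 (SE 0.26). Rpia and Tkt, at 142 and 117 CPM on average, had estimates of 0.04 and 0.08.

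**Figure D5:**
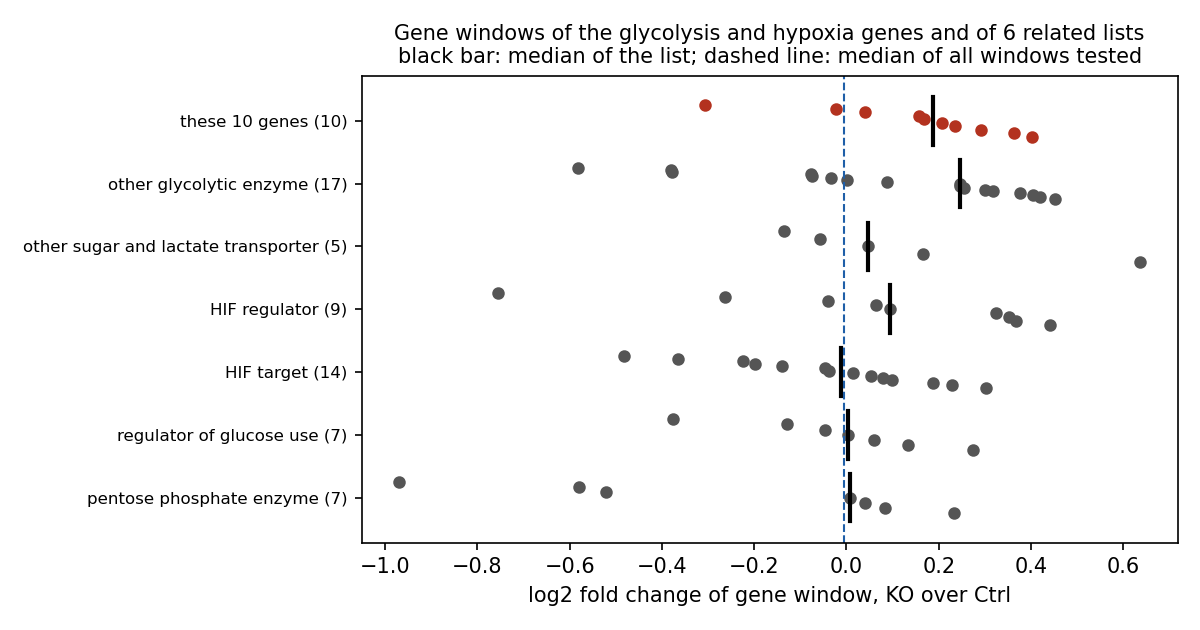
The log2 fold change of the gene window, KO over Ctrl, for the 10 genes (red) and for the tested genes of 6 related lists (grey, number in brackets), with a black bar at each median and a dashed line at the median of all windows, −0.0059. The medians of the 10 genes and of the other glycolytic enzymes are 0.19 and 0.25, those of the other lists lie between −0.01 and 0.10, and the lowest points are Rpe and Egln1.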

How the data were processed

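H3K27ac CUT&Tag libraries of 2 Ctrl and 2 KO pools were analysed, with groups from the sample titles. The authors trimmed the reads, mapped them with Bowtie2 to mm10, kept unique reads, removed duplicates, called peaks with MACS2 against IgG, merged them with bedtools and deposited the raw read counts per merged peak. Versions were not given in the sources used here. The IgG library was not analysed here. The peaks were called on the libraries compared, and starts were read as 0-based.

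Counts of all peaks in a window were summed per gene, and a peak in several windows counted in each. The count minimum for a test was 10 in 2 or more libraries, and tests used edgeR 4.0.16 (quasi-likelihood test, TMM, no covariate, Benjamini-Hochberg adjustment over all features) in R 4.3.3. Each SE is the size of the log2 fold change divided by the square root of F. Aldoa is the symbol of 2 annotated genes, of which the one sharing the RefSeq span was used, and the other adds no peak. The fits were tested on simulated data. Tables and plots used Python with pandas and matplotlib. Each library is a separate sort. The p-values of windows combine the spread between 2 such pools per group with spread shared over all windows. Those of single peaks use only the spread given by the trend over all peaks.

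The alternatives were DESeq2 1.42.0 (the tool of the study), its size factors, total counts, a loess offset, other count minimums, a replicate block, leaving out each library and other windows. Added after seeing the data were TSS peaks, peaks away from the TSS and halved counts, since both mates of a pair may have been counted. The genes and lists were chosen with earlier results of these data known. All 10 genes were named. Single peaks were named where they held the most counts at a start or had an unadjusted p under 0.05, and a few others after their values were seen. In the other lists the 3 genes with the most signal and those with an unadjusted p under 0.05 were named.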

Additional observations from a re-analysis of the deposited data

How the results depend on the processing

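Calls were 0 higher and 0 lower windows under every alternative but the replicate block. With the replicate number as a block, edgeR called 589 windows higher and 592 lower, and 152 peaks higher and 59 lower. The 10 genes were not among the called windows, the smallest adjusted p being 0.0737 at Aldoa (log2 fold change 0.36), and their median was 0.195. At an unadjusted p under 0.05 the block gave 2 of the 10 genes in place of 0, Aldoa (unadjusted p = 0.00724) and Slc2a3 (unadjusted p = 0.0264). Over all 14259 windows the block gave 1389 higher and 1461 lower at that threshold, so such values were frequent everywhere. Deviations of Ctrl 1 and KO 1 from their group means correlated at r = 0.484 over windows. The numbers are 2 pairs only and the labels do not say what they mark, so the block was not used. Leaving out 1 library gave 0 calls among windows, the lone library of a group being assumed to vary like the other group.

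The median log2 fold change of the 10 genes, 0.188, was 0.215 with DESeq2, 0.132 with total counts as library size, 0.227 with any count, 0.072 at 50 counts or more, 0.25 in TSS peaks, 0.135 away from the TSS and 0.137 with halved counts, and 0.084 to 0.198 without 1 library. Over all windows it shifted to −0.121 at 50 counts or more and −0.13 away from the TSS. It was −0.062 with total counts, −0.059 with halved counts, −0.06 without KO 1 and −0.056 without KO 2. With any count it was 0.044, and in TSS peaks 0.074. The values of the genes are to be read relative to these medians. The 1 peak higher in KO among all peaks, none of these genes, became 0 with DESeq2, with any count, at 50 counts or more, with halved counts and without Ctrl 1, Ctrl 2 or KO 2, so the range without 1 library was 0 to 1. With a loess offset 2 peaks were lower in KO.

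Of 169 values of single genes under alternatives 14 turned sign. Hif1a was −0.015 without Ctrl 2 and −0.034 in TSS peaks. Hk1 was 0.007 with DESeq2, 0.02 with any count, 0.349 in TSS peaks, 0.067 without Ctrl 2 and 0.016 without KO 1. Pfkp was −0.015 with total counts, −0.084 with a loess offset, −0.072 at 50 counts or more, −0.009 with halved counts and −0.024 without KO 1. Slc2a3 was 0.1 without Ctrl 1, and Pkm −0.495 away from the TSS. Without 1 library the values ran from −0.015 to 0.365 at Hif1a, −0.635 to 0.1 at Slc2a3, −0.11 to 0.067 at Hk1 and −0.024 to 0.061 at Pfkp. Windows of the 10 genes held 95 to 1426 counts in a library, whereas the single peaks named for a low p had as few as 1 count.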
